A study of Mus musculus with 45 samples.

Results

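Copy number of 6 genes of Ras signaling was followed in mouse mammary tumors by array comparative genomic hybridization (CGH), in which tumor DNA and a reference DNA compete for the probes of a microarray. The genes were Hras1 (the name the arrays give Hras), Nras, Braf, Map2k1, Nf1 and Rasa1. They were chosen by name, as every probe whose gene name is one of the 6, which gave 18 probes of 42235 and 6 gene names of 27125. The 45 arrays held invasive mammary tumors of female mice from 8 genetically engineered models, with pooled mouse spleen as reference, and ages were not given in the sources used here. There were 5 tumors each of BRCA1fl/fl;p53+/-;MMTV-cre, MMTV-c-Myc, C3(1)/SV40 T/t-antigens, MMTV-Her2/neu, MMTV-H-Ras and MMTV-Wnt1, 9 of MMTV-PyMT, and 6 labelled as a transplant of p53fl/fl;MMTV-cre. The MMTV promoter directs a transgene mainly to mammary epithelium, and in the models with cre the recombinase deletes the floxed gene in the cells that express it. No treatment was given in the labels, and all groups share the transgenic or deleted background of their model, with no untransformed mammary gland among the samples analysed here. Each tumor had 1 array, and the tumors of a model were taken as its replicates, with nothing in the labels on whether any came from the same mouse.

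Hras and Nras are small GTPases that pass signals from growth factor receptors when bound to GTP. GTP-bound Ras recruits Raf kinases such as Braf, which phosphorylate MEK kinases such as Map2k1, and these in turn activate the ERK kinases. Nf1 (neurofibromin) and Rasa1 (p120 RasGAP) speed GTP hydrolysis by Ras and so switch it off, and an oncogenic H-Ras expressed in mammary epithelium gives rise to mammary tumors in mice.

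All values below are log2 ratios of Cy3 over Cy5, read as tumor over reference, after the median over autosomal probes was subtracted from each array. This direction goes against the labels, which give Cy5 as the tumor, and it was chosen after values had been seen. With the dyes as labelled, every sign below turns. Of 676 autosomal intervals in the authors' own calls, 661 (97.8%) had the sign of Cy3 over Cy5, and they were the majority in 43 of 43 arrays with such an interval. In the tumors with floxed BRCA1 the second Brca1 probe lay at -3.97 ± 1.40 (SD, n = 5), against a median of 0.08 in the other 40 tumors. The first Brca1 probe was not low in them, at 0.39 ± 0.29 (SD, n = 5) against a median of 0.12. The lowest Pearson's r over autosomal probes between any pair of arrays was -0.40, for Myc_04004021 and PyMT_11567. Among arrays from different models 2 pairs had nearly the same profile over 2176 bins of 1 Mb, C3TAg_5RPT with H2N53 (r = 0.942) and C3TAg_7RPT with H2N61 (r = 0.897), where no other such pair passed 0.798. Tumor Wnt_4635 had a Wnt1 value of 0.07, against 1.07 to 1.497 in the other 4 MMTV-Wnt1 tumors. A ratio of bulk DNA cannot tell apart a change of more copies in few cells and one of fewer copies in many cells.

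On the mouse build mm8 the single Hras1 probe lies at chr7:141042967-141043018 and the single Nras probe at chr3:103194933-103194992. Braf is covered by 7 probes (chr6:39543097-39640931), Map2k1 by 3 (chr9:63983843-64045994), Nf1 by 4 (chr11:79317712-79387417) and Rasa1 by 2 (chr13:85691317-85717371). Each gene was compared with its 10 nearest probes, and the gene's value minus their mean is called the local difference. Arrays were also divided into segments of like value, and a gene was called gained where its segment mean was at least 0.2 and lost where it was -0.2 or lower. By these calls 28 of 45 tumors had at least 1 of the 6 genes gained or lost, 11.9% of the 270 values of gene and tumor were gained and 12.6% lost. Over all gene names 16.6% of values were gained and 10.5% lost, so that the 6 genes as a group lay near the array as a whole.

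**Figure D1:**
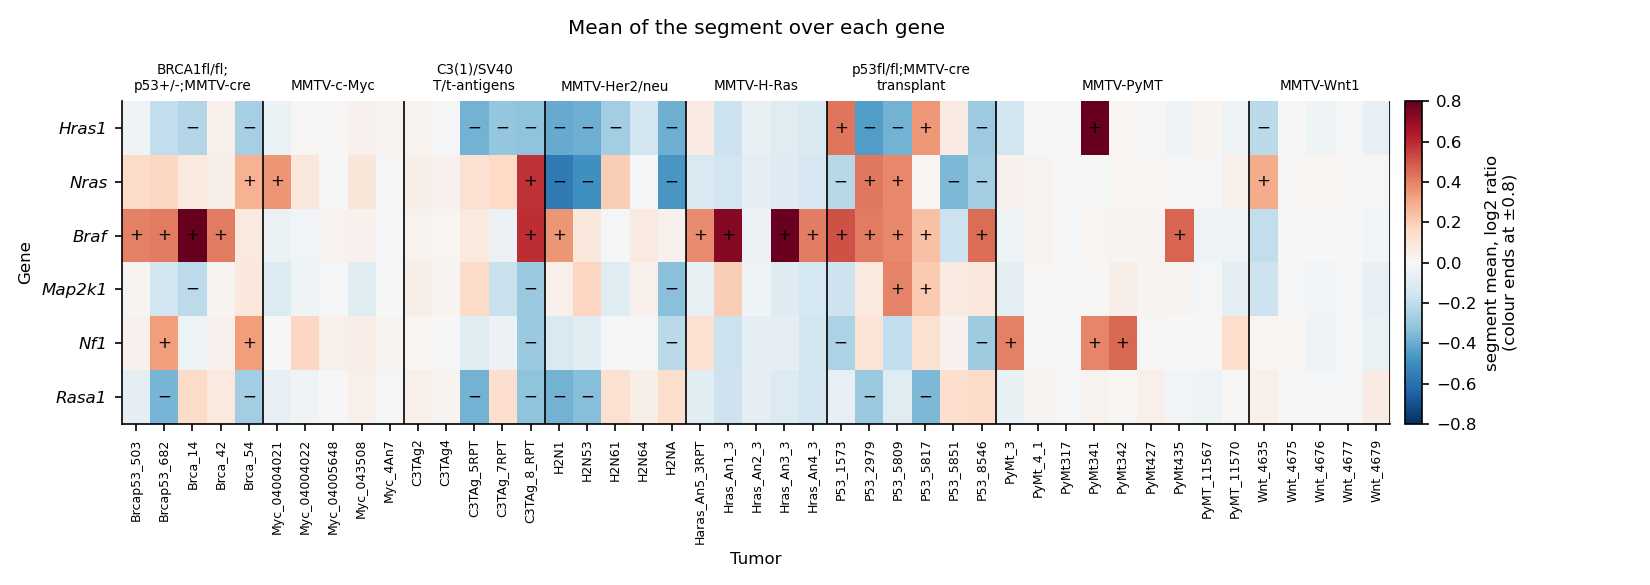
Mean log2 ratio of the segment that lies over each of the 6 genes (rows) in each of the 45 tumors (columns, grouped by model). Red is higher and blue lower than the array's autosomal median, colours end at ±0.8, and + and − mark the 32 gains and 34 losses. Braf has 16 gains and no loss, and Hras1 has 13 losses and 3 gains, the darkest in PyMt341.

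In MMTV-H-Ras tumors, named for an H-Ras transgene whose origin the sources used here do not give, Hras1 was close to the array median. Its log2 ratio was -0.04 in Haras_An5_3RPT, -0.17 in Hras_An1_3, -0.06 in Hras_An2_3, 0.04 in Hras_An3_3 and 0.09 in Hras_An4_3. All 5 values lay inside the range of the other tumors, and no MMTV-H-Ras tumor had Hras1 in a gained or lost segment (0 of 5, exact Clopper-Pearson 95% interval 0 to 52.2%). With the mean of the probe and its 10 nearest in place of segments, 3 of the 5 were called lost, Hras_An1_3 at -0.30, Hras_An2_3 at -0.27 and Hras_An4_3 at -0.23. The model mean was -0.03 ± 0.10 (SD, n = 5), and it differed from the mean of the other 7 models by 0.05, with a 95% interval of -0.40 to 0.50 (limma, adjusted p = 0.935). Tumor PyMt341, described below, widens that interval, and without it the difference was 0.09 (limma, adjusted p = 0.664). Whether the probe also reports the transgene's copies is not given in the sources used here.

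Against its own neighbourhood the Hras1 probe was somewhat higher in MMTV-H-Ras tumors, by an amount that did not pass the adjusted threshold. The 10 nearest probes averaged 0.03, -0.31, -0.29, -0.05 and -0.26 in the same order of tumors, so that the local difference was negative in Haras_An5_3RPT and positive in the other 4. It exceeded the mean of the other models by 0.17 (SE 0.09, 95% interval 0.00 to 0.35, limma, adjusted p = 0.465). The two-sided exact permutation test of 5 against 40 tumors gave p = 0.0425. With scan date as a random block the difference was 0.084. The tumors of the floxed BRCA1 model had nearly the same local difference from the rest, 0.17 (95% interval -0.01 to 0.34, limma, adjusted p = 0.247). The flanking genes were not alike, since Rnh1, 24.8 kb away on the lower side, had a mean of 0.09 ± 0.09 (SD, n = 5) in these tumors, and Lrrc56, 18.3 kb away on the upper side, one of -0.29 ± 0.23 (SD, n = 5). The arrays of 4 of these 5 tumors lay on a slide that held no other model, so that slide and model cannot be told apart for them. The fifth, Haras_An5_3RPT, shared its scan date with 4 arrays of other models, and there the local difference was -0.07 against a mean of 0.00 in those 4.

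One tumor carried a high-level amplification over Hras1. In the MMTV-PyMT tumor PyMt341 the Hras1 probe was at 2.76, a ratio of 6.795-fold, while the next highest of all 45 tumors was at 0.34. The 8 other MMTV-PyMT tumors lay between -0.60 and 0.10. The segment ran from chr7:139088198-141129697, over 2042 kb and 108 probes, with a mean of 2.75 and every probe at 1.77 or higher. A second segment at chr7:141483295-142194883 had a mean of 2.77 over 32 probes, and the 30 probes between both averaged -0.05. To either side the segment means were 0.00 and -0.04. So 2 blocks of almost the same ratio were separated by 30 probes, over 316 kb, at the level of the flanks.

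The 2 blocks of PyMt341 held 100 gene names, 76 of which are more than a coordinate, and no other chromosome of this tumor had a gene name in a segment with a mean of 2 or higher. Over all tumors, 0.0667% of values of gene and tumor lay in such segments, and none of the other 5 genes did in any tumor. Hras1 was not the highest of its block, ranking 54 among the gene names of the tumor. The Ras effector family gene Rassf7 was at 2.54, Irf7, a transcription factor of the interferon response, at 2.88, Sct, which encodes secretin, at 2.94 and Rnh1, a ribonuclease inhibitor, at 2.87. In the second block the MAP kinase phosphatase Dusp8 was at 2.70 and the lysosomal protease Ctsd at 2.77. Deaf1, in the gap, and Igf2, beyond the second block, were both at -0.24. The limits of the blocks fell between probes of the same gene in 2 places. The Lrrc27 probes were at -0.38 and 2.68, and the 3 Ap2a2 probes at -0.27, -0.06 and 2.57.

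**Figure D2:**
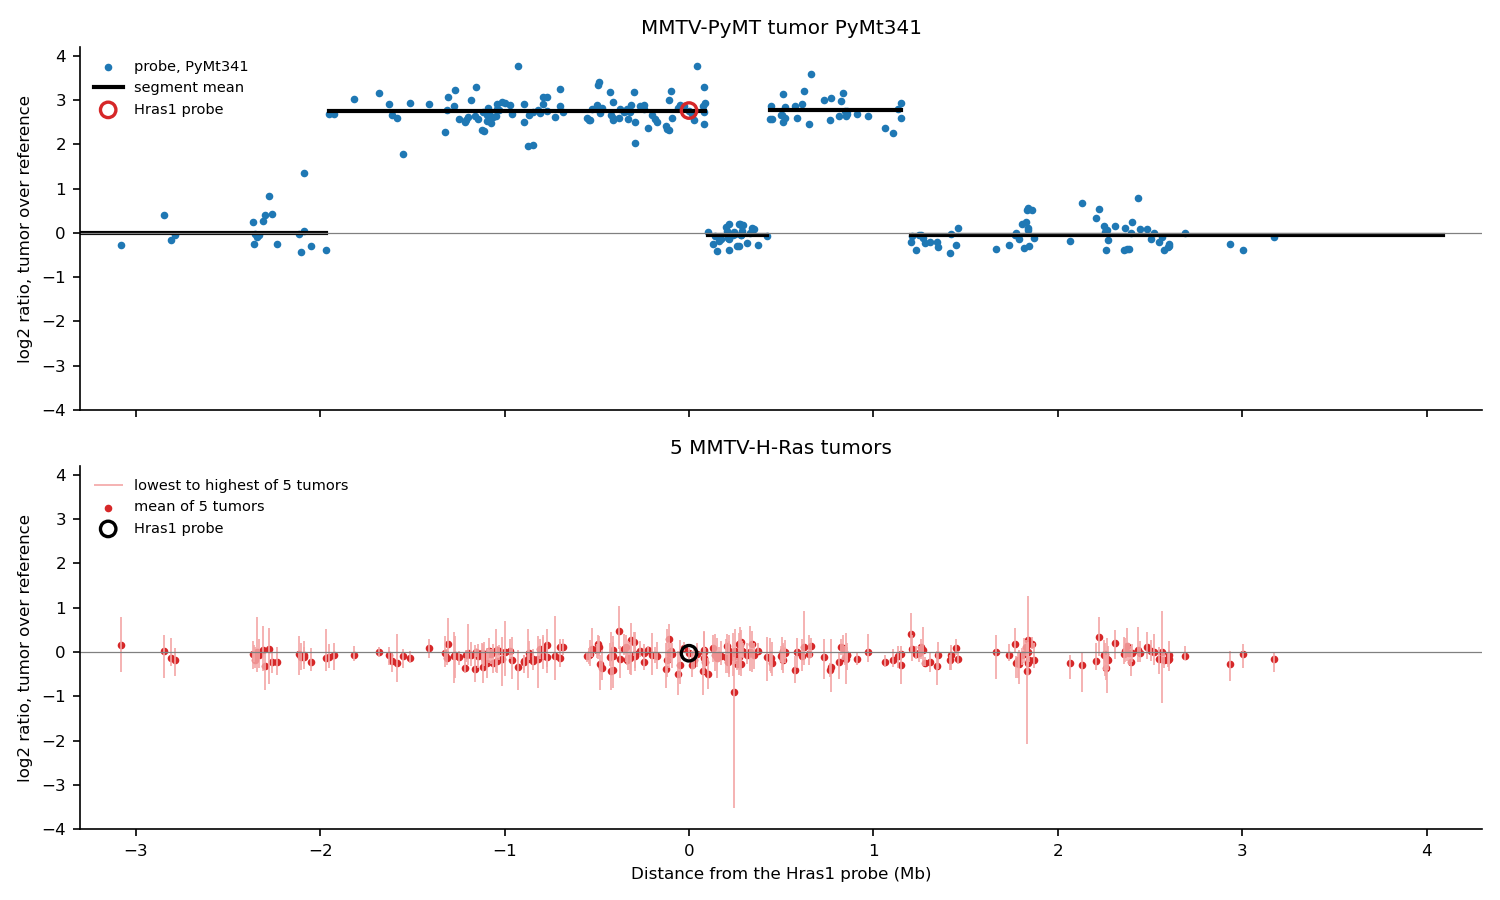
Log2 ratio of each probe against its distance in Mb from the Hras1 probe, in tumor PyMt341 (top, with segment means as black lines) and in the 5 MMTV-H-Ras tumors (bottom, mean and lowest to highest of the tumors). PyMt341 has 2 blocks at about 2.8 around a gap near 0 whose probes span 316 kb, and the MMTV-H-Ras mean at Hras1 is -0.03.

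Apart from PyMt341, Hras1 was more often lost than gained. It was lost in 13 of 45 tumors (28.9%, exact Clopper-Pearson 95% interval 16.4 to 44.3%), and 5.75% of gene names were lost in at least as many. Among MMTV-Her2/neu tumors it was lost in 4 of 5, as were 10.6% of gene names in at least as many. Their values were -0.56 in H2N1, -0.34 in H2N53, -0.29 in H2N61, -0.12 in H2N64 and -0.54 in H2NA, all below 0. The C3(1)/SV40 T/t-antigens tumors had 3 losses of 5 (11% of gene names in at least as many), with values of -0.35 in C3TAg_5RPT and -0.36 in both C3TAg_7RPT and C3TAg_8_RPT, against -0.01 and -0.22 in the other 2 tumors. Both of the near-identical pairs of arrays are among these losses, and without the 4 arrays the count was 9 tumors.

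The p53fl/fl;MMTV-cre transplant tumors went both ways. Hras1 was lost in P53_2979, P53_5809 and P53_8546 and gained in P53_1573 and P53_5817, with a lowest value of -0.43, a median of -0.11 and a highest of 0.34 (20.8% of gene names were lost in at least 3 of these 6). Most of the Hras1 changes were wide. The 16 altered segments had a median length of 15516 kb, the shortest of 1390 kb in H2N53, and in 1 tumor, C3TAg_5RPT, the segment was the whole chromosome. The remaining losses were in Brca_14, Brca_54 and Wnt_4635. Called from the authors' own intervals the losses numbered 7, and C3TAg_5RPT, with a segment mean of -0.38, had no such interval over Hras1.

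Nras had its lowest model mean in MMTV-H-Ras tumors (0.02), next to MMTV-PyMT (0.09), which held the lowest single values, -0.37 in PyMt_3 and -0.26 in PyMt_4_1. The MMTV-H-Ras values were 0.06 in Haras_An5_3RPT, -0.07 in Hras_An1_3, 0.18 in Hras_An2_3, -0.01 in Hras_An3_3 and -0.07 in Hras_An4_3. None of the 5 lay above the median of the other 40 tumors, although both ranges overlap, since the others ran from -0.37 to 0.88. The difference from the other models was -0.24 (95% interval -0.46 to -0.02, limma, adjusted p = 0.198, two-sided exact permutation test p = 0.0440). Their mean over the whole of chromosome 3 was -0.10, and the local difference of Nras did not stand out (0.06, limma, adjusted p = 0.893).

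The highest Nras values were in the p53fl/fl;MMTV-cre transplant tumors P53_2979 (0.88) and P53_5809 (0.79), where most of chromosome 3 was gained. Gains were also called in C3TAg_8_RPT at 0.68, Brca_54 at 0.55, Wnt_4635 at 0.33 and Myc_04004021 at 0.18, 6 tumors in all, and 52.6% of gene names were gained in at least as many. Of the 6 loss calls (32.9% of gene names were lost in at least as many), 4 rest on segments of 5 probes and at most 88.5 kb, in H2N1, H2N53, H2NA and P53_5851. In those 4 tumors the Nras probe itself was above 0, at 0.20, 0.35, 0.24 and 0.44. With segments of at least 20 probes, an alternative added after the data had been seen, 2 loss calls were left, in P53_1573 and P53_8546.

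Braf was the gene of the 6 with the most gains, and it was lost in no tumor. It was gained in 16 of 45 (35.6%, exact Clopper-Pearson 95% interval 21.9 to 51.2%), and 5.61% of gene names were gained in at least as many. The 0 losses of 45 allow a share of up to 7.87% by the same exact interval. In MMTV-H-Ras tumors the values were 0.36 in Haras_An5_3RPT, 0.81 in Hras_An1_3, 0.01 in Hras_An2_3, 0.82 in Hras_An3_3 and 0.41 in Hras_An4_3. So 4 of 5 were gained, as were 17.4% of gene names in at least as many of these tumors, and Hras_An2_3 had no change. BRCA1fl/fl;p53+/-;MMTV-cre tumors were gained in 4 of 5 (6.12% of gene names), with values of 0.56 in Brcap53_503, 0.34 in Brcap53_682, 0.92 in Brca_14, 0.39 in Brca_42 and 0.00 in Brca_54. In p53fl/fl;MMTV-cre transplant tumors 5 of 6 were gained (5.89% of gene names), from a lowest value of -0.11 in P53_5851 through a median of 0.43 to 0.60 in P53_1573. Single gained tumors were seen in 3 further models, C3TAg_8_RPT at 0.71, H2N1 at 0.43 and PyMt435 at 0.53.

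The Braf gains varied in width between tumors. In the 4 MMTV-H-Ras tumors the segments spanned 105547 to 146238 kb and from 64.1% to nearly all of the probes of chromosome 6, with segment means of 0.38, 0.73, 0.79 and 0.41, and the mean over the chromosome was 0.36, 0.74, 0.79 and 0.41. In the other 12 tumors the segments ran from 2449 kb to the whole of the chromosome, in PyMt435. The shortest, in Brca_14, ran from chr6:37282182-39731610 with 65 probes at a mean of 1.04, followed by 95 probes at 0.64 and preceded by 15 at 0.16. It held 40 gene names, and Braf lay 90.7 kb from its upper end. The 16 segments share chr6:37479800-39731610, with 39 gene names, an overlap that follows in part from their choice as the segments over Braf. The width of the segments was not compared by a test.

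**Figure D3:**
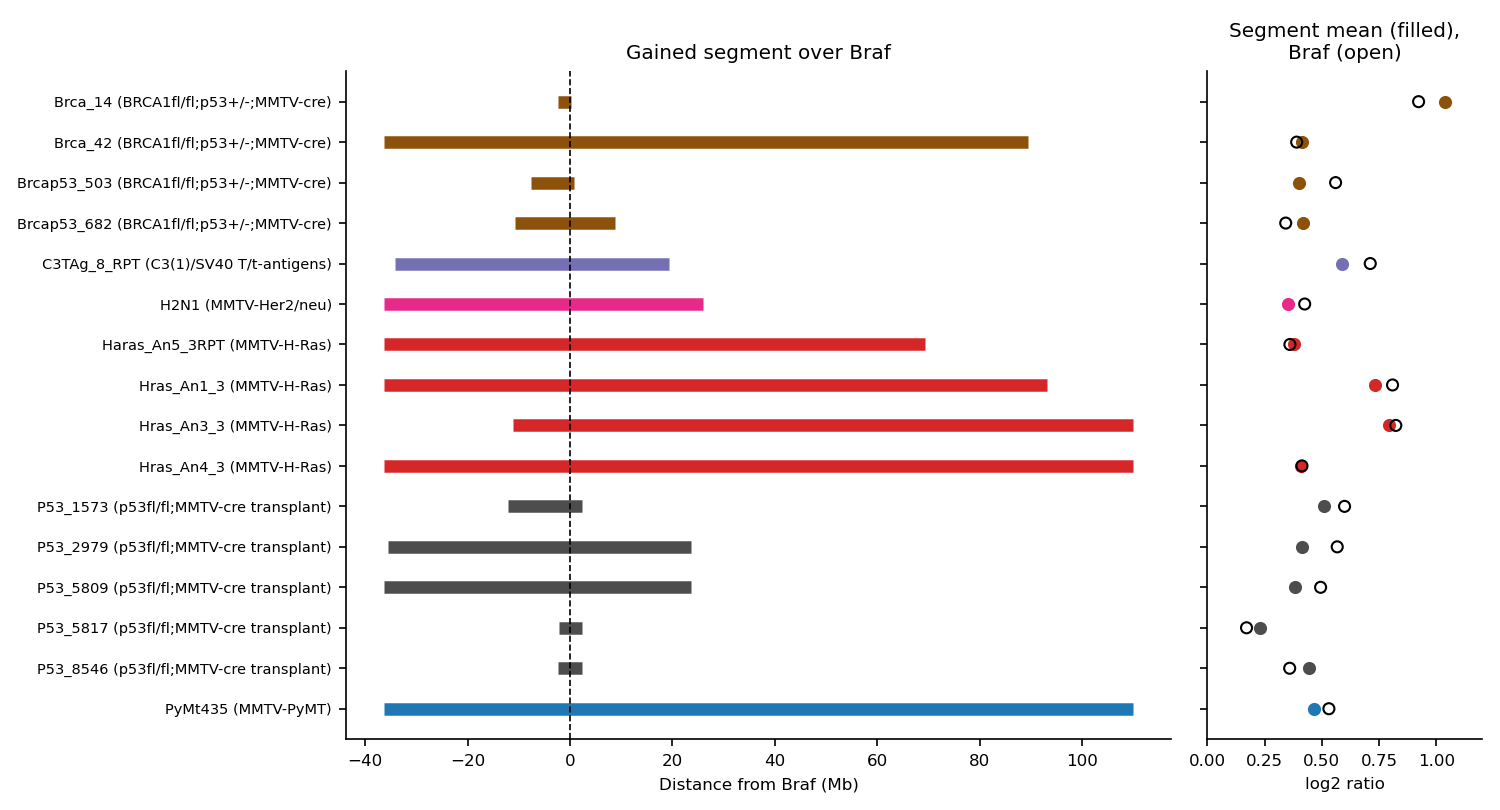
Extent of the gained segment over Braf in each of the 16 tumors, as distance in Mb from Braf (left, coloured by model), with the segment mean (filled) and the Braf log2 ratio (open) of the same tumor (right). The 4 MMTV-H-Ras segments span 105547 kb or more, and the shortest are Brca_14 (2449 kb), P53_5817 (4446 kb) and P53_8546 (4764 kb).

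The Braf level in MMTV-H-Ras tumors was 0.48 ± 0.34 (SD, n = 5), and it was higher than the mean of the other 7 models by 0.29 (SE 0.11, 95% interval 0.07 to 0.52), which missed the threshold (limma, adjusted p = 0.115). The two-sided exact permutation test gave p = 0.0339. The size depended on single tumors: without Hras_An1_3 the difference was 0.21 (limma, adjusted p = 0.401), without Hras_An3_3 it was 0.21 (limma, adjusted p = 0.344), and without Hras_An2_3, the tumor with no gain, it was 0.41 and passed (limma, adjusted p = 0.0274). With normexp background correction it was 0.13 (limma, adjusted p = 0.797), and within the 1 scan date that holds both it was 0.10, for 1 tumor against 4. All 7 probes pointed the same way, with differences between 0.23 and 0.38. Against its 10 nearest probes Braf was higher in 5 of 5 MMTV-H-Ras tumors, by 0.09 ± 0.04 (SD, n = 5), and this local difference was -0.00 from that of the other models (95% interval -0.12 to 0.11, limma, adjusted p = 0.993). Over the 45 tumors r between Braf and those probes was 0.922, a description over arrays that share the segments.

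Map2k1 was gained in 2 tumors and lost in 3, and most gene names were altered in at least as many (82.8% gained, 66.9% lost). Its 3 probes did not move together, and r of each with the mean of the other ones was 0.35, 0.03 and -0.00, and the third probe had an SD of 0.68 over the tumors. Over the 45 tumors r of Map2k1 with its 10 nearest probes was 0.177, the lowest of the 6 genes. In MMTV-H-Ras tumors it was 0.31 in Haras_An5_3RPT, 0.17 in Hras_An1_3, 0.15 in Hras_An2_3, -0.20 in Hras_An3_3 and 0.13 in Hras_An4_3, 4 above the median of the others. The difference of 0.17 had a 95% interval of -0.09 to 0.43 (limma, adjusted p = 0.482). The segments over it were gained in P53_5809 (0.40) and P53_5817 (0.21) and lost in Brca_14, C3TAg_8_RPT and H2NA, with means of -0.33 to -0.21. In P53_5817 the gene's own value was -0.49, so that segment and probes went opposite ways.

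Nf1, the neurofibromin gene, was gained in 5 tumors and lost in 4, where 63.2% of gene names were gained and 57.2% lost in at least as many. The gains were in 3 of 9 MMTV-PyMT tumors (12.5% of gene names in at least as many), at 0.58 in PyMt_3, 0.50 in PyMt341 and 0.55 in PyMt342, and in 2 tumors of the floxed BRCA1 model, at 0.44 in Brcap53_682 and 0.35 in Brca_54. The MMTV-PyMT segments spanned 54542 to 81968 kb of chromosome 11, and PyMt341 had both this gain and the Hras1 amplification. Losses were called in C3TAg_8_RPT at -0.27, H2NA at -0.36, P53_1573 at -0.41 and P53_8546 at -0.45. All 9 altered tumors had Nf1 values of the same sign as their segment, and outside them values reached from -0.35 to 0.41. In MMTV-H-Ras tumors Nf1 was 0.38 in Haras_An5_3RPT and between -0.22 and -0.01 in the other 4, and no difference passed (-0.02, 95% interval -0.27 to 0.23, limma, adjusted p = 0.947).

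Rasa1, which encodes p120 RasGAP, was lost in 8 tumors and gained in none, and 19.7% of gene names were lost in at least as many. The losses were spread over 4 models with 2 tumors each, namely Brcap53_682 and Brca_54, C3TAg_5RPT and C3TAg_8_RPT, H2N1 and H2N53, and P53_2979 and P53_5817. The gene's values in those 8 lay between -0.61 and -0.20, with segments of 11646 to 117115 kb. C3TAg_5RPT and H2N53 are one of the near-identical pairs. MMTV-Wnt1 had the highest mean, 0.22 ± 0.14 (SD, n = 5), with all 5 values above 0, from 0.06 to 0.38, and a difference from the other models of 0.28 (95% interval 0.05 to 0.51, limma, adjusted p = 0.327). Their mean over the 10 nearest probes was 0.00 and no MMTV-Wnt1 tumor had the gene in an altered segment.

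**Figure D4:**
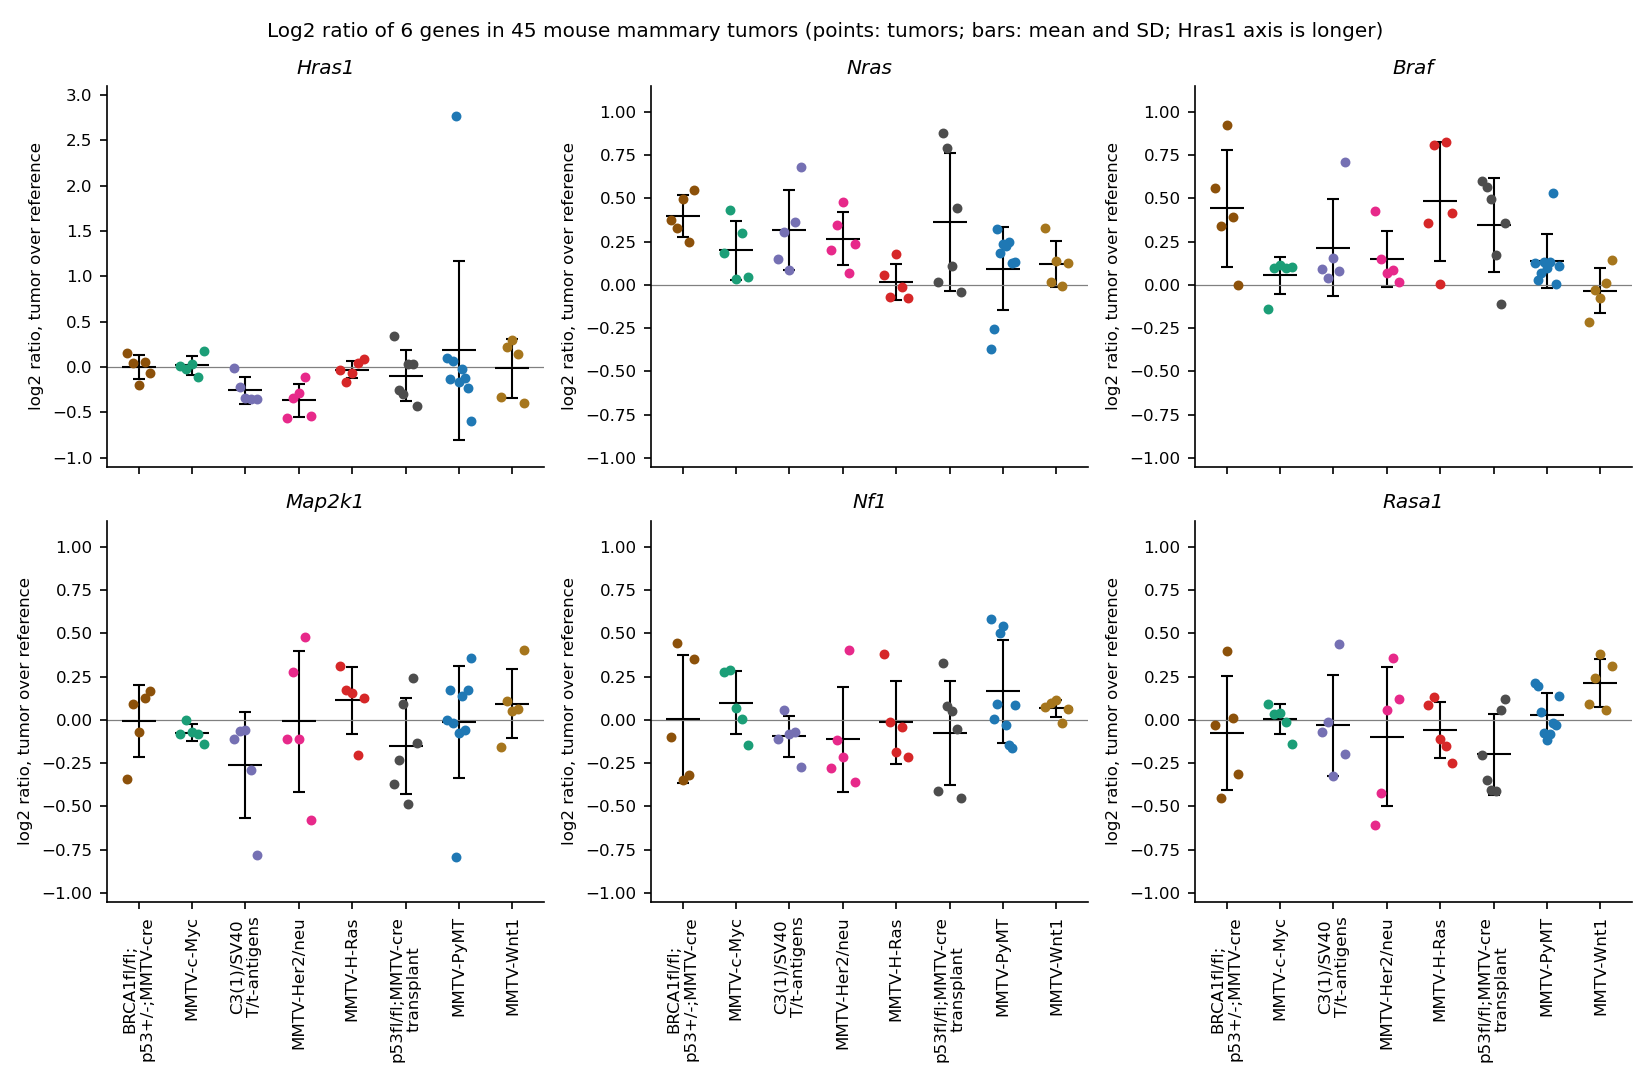
Log2 ratio, tumor over reference, of each of the 6 genes in every tumor (points) by model, with the mean and SD of each model in black. The Hras1 axis is longer because PyMt341 stands at 2.76, MMTV-H-Ras Braf values run from 0.01 to 0.82, and most models overlap in every panel.

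The comparison the models imply, MMTV-H-Ras against the others, gave no call among the 6 genes. By limma over all gene names, 0 of 6 passed for the level, where 4.05% of gene names did (2.55% higher and 1.5% lower), and 0 of 6 for the local difference, where 0.313% did. At an unadjusted p under 0.05 there were 2 of 6 for the level, Nras lower and Braf higher, against 21.3% of gene names, and 1 of 6 for the local difference, Hras1, against 10.7%. The exact permutation test named the same genes at its unadjusted p.

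**Figure D5:**
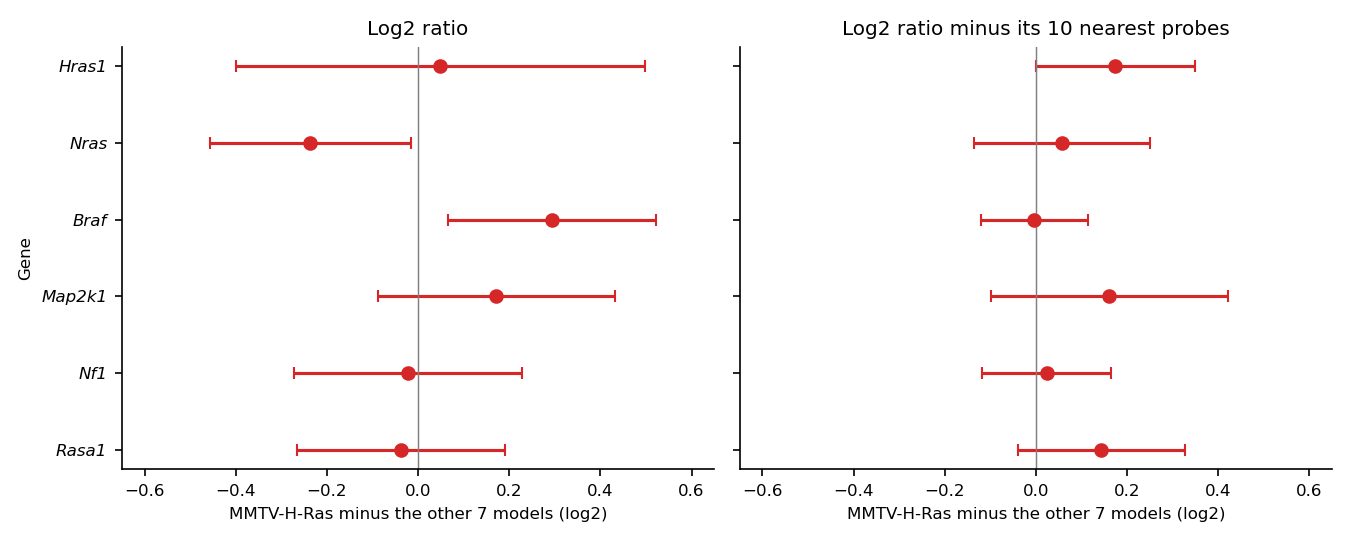
Difference between MMTV-H-Ras and the mean of the other 7 models for each gene, with 95% intervals from limma, for the log2 ratio (left) and for the log2 ratio minus the mean of the 10 nearest probes (right). The Braf and Nras intervals on the left and the Hras1 interval on the right lie to 1 side of 0 and none passed after adjustment.

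Each model was also compared with the other 7 in the level of each gene. Of 48 such differences, 0 passed by limma, which does not show that the models were alike, and 5 had an unadjusted p under 0.05. Beside the Nras and Braf values of MMTV-H-Ras and the Rasa1 value of MMTV-Wnt1, these were Braf in the floxed BRCA1 model (0.25, limma, adjusted p = 0.206) and in MMTV-Wnt1 (-0.29, limma, adjusted p = 0.293), and 19.5% and 11.6% of gene names had such a p in those models. The share of gene names called was 5.32% for BRCA1fl/fl;p53+/-;MMTV-cre, 16.3% for the p53fl/fl;MMTV-cre transplant and 0.527% for MMTV-c-Myc. It was 0.476% for MMTV-PyMT, 0.103% for MMTV-Wnt1, 0.0258% for MMTV-Her2/neu and 0.00369% for C3(1)/SV40 T/t-antigens. Across all 8 models at once, Braf was the 1 of 6 genes to vary (limma F test, adjusted p = 0.0491), where 20% of gene names did, and for the local difference 0 of 6 varied, where 20.5% did. The Braf call ended under each of the 6 alternatives run for it, with adjusted p of 0.0567 to 0.177. Ordered by mean, Braf ran from MMTV-H-Ras (0.48), BRCA1fl/fl;p53+/-;MMTV-cre (0.44) and the p53fl/fl;MMTV-cre transplant (0.35) through C3(1)/SV40 T/t-antigens (0.22), MMTV-Her2/neu (0.15), MMTV-PyMT (0.14) and MMTV-c-Myc (0.05) to MMTV-Wnt1 (-0.03). Hras1 ran from MMTV-PyMT (0.18, with PyMt341) to MMTV-Her2/neu (-0.37), Nras from the floxed BRCA1 model (0.40) to MMTV-H-Ras (0.02), Map2k1 from MMTV-H-Ras (0.11) to C3(1)/SV40 T/t-antigens (-0.26), Nf1 from MMTV-PyMT (0.16) to MMTV-Her2/neu (-0.11) and Rasa1 from MMTV-Wnt1 (0.22) to the p53fl/fl;MMTV-cre transplant (-0.20). Of 42 pairs of models next to each other in these orders, none passed (exact permutation tests, adjusted p = 0.999 for all). Neighbours in an order are the closest models, and 5 against 5 tumors cannot give an exact p under 0.00794, so that hardly any pair could pass after adjustment. The lowest unadjusted exact permutation p was 0.0310, for Rasa1 in MMTV-Wnt1 against MMTV-PyMT.

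For the local difference 1 of 48 comparisons passed. In BRCA1fl/fl;p53+/-;MMTV-cre tumors Nf1 had a mean of -0.17 relative to its 10 nearest probes, while the means of the other models lay between -0.02 and 0.13, a difference of -0.22 (95% interval -0.36 to -0.08, limma, adjusted p = 0.0437), where 7.78% of gene names passed, 4.3% of all names on the lower side. The local difference was below -0.3 in Brca_14 and Brca_42, whose Nf1 values were -0.35 and -0.32 beside neighbours at -0.04 and 0.07, while in Brcap53_682 it was above 0. In the other models the share of gene names that passed was 25.8% for the p53fl/fl;MMTV-cre transplant, 1.52% for MMTV-Wnt1, 0.0332% for MMTV-PyMT, 0.0147% for MMTV-Her2/neu, and 0% for MMTV-c-Myc and C3(1)/SV40 T/t-antigens. The call ended with normexp background correction (adjusted p = 0.607) and with the slide as a random block (adjusted p = 0.210).

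Which gene names moved most like each gene was also recorded over the 45 tumors, as a description, since neighbours share segments and tumors may share a reference. By the paper, the reference was spleen DNA of the background strain. For Braf these were AK173013 (r = 0.945, at 3025 kb) and D130059P03Rik (r = 0.937, at 1176 kb), and for Nf1 Trim37 (r = 0.861, at 7647 kb) and 1100001G20Rik (r = 0.854). For Rasa1 they were AK090136 (r = 0.869) and Rhobtb3 (r = 0.825), for Nras AK144215 (r = 0.784) and Prcc (r = 0.764), and for Map2k1 Hmgcll1 (r = 0.617) and Vprbp (r = 0.603). Hras1 was most like AK198428 and Adam8 (r = 0.938 for both), which lie in the amplified block of PyMt341, and without that tumor r was 0.685 and 0.707. On other chromosomes the highest r was 0.686, for Nras with Tex11 on the X chromosome, and the leading names were Gpr1 and A830006F12Rik for Braf, Hlf and Tmem132e for Hras1, Utrn and D12Ertd553e for Map2k1, 2900006K08Rik and AK038612 for Nf1, Sirt1 and BC116411 for Rasa1 and Clcn5 beside Tex11 for Nras. Between the 6 genes themselves r lay between -0.35 and 0.34.

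The wider Ras pathway was taken as a list of 44 further genes by role, of which 42 have a probe, and the others were not analysed here. The median difference of the list in MMTV-H-Ras tumors was -0.06, beside 0.00 over all gene names. Rasgrp1, an exchange factor that loads Ras with GTP, was the 1 gene of 42 called higher in these tumors, a share near the 2.55% of all gene names that were. It was 0.11 in Haras_An5_3RPT, 0.46 in Hras_An1_3, 0.77 in Hras_An2_3, -0.01 in Hras_An3_3 and 0.73 in Hras_An4_3, against a median of 0.01 and a highest value of 0.42 in the others. The difference was 0.42 (limma, adjusted p = 0.0170). The means over its whole chromosome, 2, were 0.10, 0.15, 0.47, -0.05 and 0.42 in the same order of tumors, so that the tumors with the highest Rasgrp1 values also had the highest chromosome means, and no gene of the list was called for the local difference (limma, 0 of 42, and 4 at an unadjusted p under 0.05). This call ended with normexp (adjusted p = 0.610), with slide or scan date as a random block, and without either Hras_An1_3 or Hras_An4_3. By role, none of 9 Ras-related GTPases, 6 GTPase-activating proteins, 6 adaptors and 9 scaffolds and inhibitors was called in MMTV-H-Ras tumors, 1 of 7 exchange factors was, and at an unadjusted p under 0.05 there were 7 of 42, where 21.3% of gene names had such a p. Over all tumors 15% of the list's values were gained and 11% lost.

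Counted by tumor, with no comparison to other genes, 17 tumors had none of the 6 genes altered, 13 had 1, 3 each had 2 and 3, 8 had 4, and 1 tumor, C3TAg_8_RPT, had all 6. Every tumor of the floxed BRCA1 model and every p53fl/fl;MMTV-cre transplant tumor had at least 1, as did 4 of 5 MMTV-H-Ras, 4 of 5 MMTV-Her2/neu, 3 of 5 C3(1)/SV40 T/t-antigens and 4 of 9 MMTV-PyMT tumors, against 1 of 5 each for MMTV-c-Myc (Myc_04004021) and MMTV-Wnt1 (Wnt_4635). In MMTV-H-Ras tumors the 4 altered values were all Braf gains. Over all gene names and tumors 16.6% of values were gained and 10.5% lost. The share of all gene names altered in each tumor was not set beside these counts. The contrast between models is therefore not read as particular to the 6 genes.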

How the data were processed

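The deposited Agilent 44K files hold, per array, spot intensity values and a log10 ratio of Cy5 over Cy3 made by the authors with Feature Extraction (10.7 in the submitters' processing notes, 9.5.1.1 in the file headers), after background subtraction and dye normalization (6 arrays with a different dye setting). The authors also deposited mean log2 ratios of intervals called by ADM-2 on mm8. Here the log10 ratio was turned (Cy3 over Cy5), put on the log2 scale, freed of control and outlier spots, centred on the autosomal median of the array and averaged over probes of a name. Differences were tested with limma 3.58.1 (lmFit and eBayes, 45 tumors in 8 models), adjusted by Benjamini-Hochberg over 27125 gene names and called at 0.05. Segments came from circular binary segmentation (split statistic 6, at least 5 probes), with exact Clopper-Pearson intervals over tumors. Scripts were tested on simulated data. Columns of no sample in the series: 0.

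Members and lists were chosen with earlier results of these data known. Named were the 6 genes, a list gene called in MMTV-H-Ras, nearest neighbours and its most alike names (at least 2 probes), and other genes of the PyMt341 blocks, chosen after their values were seen. The 45 arrays, on 18 slides and 10 scan dates, had 96.6 to 99.8% of probes well above background and a probe SD of 0.159 to 0.476, and their number limits the precision. Alternatives were centring, background correction (normexp, offset 50), filters, slide and scan blocks, array weights, window, thresholds and left-out arrays. No sequence is shown: the files used here give none for the probes. Some results are not reported here.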

Additional observations from a re-analysis of the deposited data

Results flagged for a closer look

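Of 48 groups of a gene and a model, 5 held a tumor far from the others by Dixon's gap test, where chance gives about 1 in 20. Hras1 was at 2.76 in PyMt341, with the nearest of the other 8 MMTV-PyMT tumors at 0.10. In the same tumor Map2k1 was the lowest of its model, at -0.79 with the nearest at -0.08, although its segment mean there was 0.01. Braf was the high gene in C3TAg_8_RPT (0.71, nearest 0.16) and in PyMt435 (0.53, nearest 0.14), both with a gained segment over it. Braf was also the lowest of MMTV-c-Myc in Myc_04004021, at -0.14 with the nearest at 0.10, where the segment mean was -0.05. The causes were not tested.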

How the results depend on the processing

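No paired analysis was possible because replicate numbers were given in order of accession and pair no tumors. Slides, some of them shared between models, were fitted as a random block. Over 510 values of results and settings, 414 were labelled the same. For a tested difference this means the same direction and side of the threshold, and for a count an equal value or a small ratio. For the comparison within 1 scan date, which had no test, it means a move smaller than the SD of the MMTV-H-Ras tumors. Among MMTV-H-Ras and other arrays of 1 scan date, Hras1 differed by 0.26 and its local difference by -0.062 (1 against 4 tumors, no test). Leaving out 1 MMTV-H-Ras tumor at a time gave 0.02 to 0.08 for Hras1 and 0.12 to 0.23 for its local difference, neither of which passed under any setting run. Of the 6 genes 0 to 1 passed for the level when 1 tumor was left out (Braf without Hras_An2_3) and 0 for the local difference. The F test called 0 genes when centred on the density peak, with normexp, with slide as a random block, without Wnt_4635, without the 4 near-identical arrays and without PyMt341 (added after the data were seen). Taking the mean of the gene and its 10 nearest probes in place of segments gave 3 MMTV-H-Ras tumors with Hras1 called lost. Gene names called for the level (1098) were 573 with the density peak, 0 with normexp, 19 with slide and 0 with scan date as a block, 643 without the 4 arrays, 609 with equal weights of tumors and 12 (without Hras_An1_3), 88 (Hras_An4_3), 591 (Hras_An3_3) or 1791 (Hras_An2_3) leaving out 1 tumor. For the local difference (85) they were 0 with normexp and with either block, 386 with array weights, 42 without the 4 arrays, 38 with equal weights and, leaving out 1 tumor, 3 (Hras_An2_3), 5 (Hras_An1_3), 32 (Hras_An4_3), 234 (Hras_An3_3) or 419 (Haras_An5_3RPT). The cause was not tested.

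Differences near 0 turned sign, none of them called. The Nras local difference (0.06) was -0.10 with normexp and -0.0092 to 0.138 leaving out 1 MMTV-H-Ras tumor. That of Braf (-0.0033) was 0.023 by the median of probes, 0.0022 without the 4 arrays, 0.0016 with 20 nearest probes, 0.073 with 5 on each side, 0.069 for probe 6, 0.082 for probe 7 and -0.021 to 0.0087 leaving out 1 tumor. The Nf1 level (-0.02) was 0.013 with the density peak, 0.0093 with normexp, 0.00092 with scan date as a block, 0.0063 with array weights, 0.158 for probe 4 and -0.122 to 0.028 leaving out 1 tumor. The Nf1 local difference (0.02) was -0.153 for probe 2 and -0.011 to 0.048 leaving out 1 tumor. The Rasa1 level (-0.04) was 0.011 for probe 1 and -0.084 to 0.011 leaving out 1 tumor. Loss calls of Hras1 ranged from 7 to 15 over the settings, Braf gains from 15 to 18 and Rasa1 losses from 5 to 9.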
